A study of Mus musculus with 8 samples.

Results

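The 9 genes Irf1, Irf7, Isg15, Ifit1, Oasl2, B2m, H2-K1, H2-D1 and Tap1 belong to the interferon response and to antigen presentation by class I molecules. They were chosen by symbol, and all 9 were found among the 11554 genes of the crypt table and among the 12701 genes of the villus table. RNA was sequenced from crypts and villi of the small intestine of C57BL/6 mice, with 2 libraries for each tissue and genotype. In Gli1-PtgscKO mice, tamoxifen-activated CreER driven by Gli1 deletes floxed Ptgs1 and Ptgs2, which code for the cyclooxygenases, from the mesenchymal cells that express Gli1, and the tissue was taken 1 month after tamoxifen. Ctrl mice are given in the sample labels as Gli1-CreERT2; Rosa26-tdTomato animals of WT genotype, whereas the study's text describes floxed Ctrl animals without Cre. What Cre and tamoxifen the Ctrl mice share with the Gli1-PtgscKO mice is therefore not settled here. The age of the mice is not given in the sources used here.

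The values are gene counts divided by a size factor for each library, called normalized counts. Reads on the listed genes lay between 16853017 and 21121714 in the crypt libraries and between 13477600 and 15751024 in the villus libraries. The 2 Ctrl villus columns held identical values and were counted as 1 library, so villus differences carry no test. The deletion itself is not visible in these libraries. Ptgs1 had 365.5 and 163.8 normalized counts in Ctrl crypts against 178.4 and 198.9 in Gli1-PtgscKO crypts, which overlap, and neither table lists Ptgs2 or Gli1. The lowest mean of a listed gene was 48.4 in crypts and 8.73 in villi, so an unlisted gene may still be expressed at a low level. Crypts differed more between the Gli1-PtgscKO libraries, by a median of 0.50 (absolute log2 difference over all genes), than between the Ctrl libraries, by 0.19. Epithelial markers were abundant in every library, with summed levels of Epcam, Vil1, Cdh1, Krt8 and Cldn7 from 93041 to 166266 normalized counts. The libraries also held RNA of leukocytes and mesenchyme. In such bulk RNA, fewer cells of a type and less RNA per cell cannot be told apart.

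Interferons are secreted proteins that signal from cell surface receptors through JAK kinases and STAT transcription factors. The activated factors bind the interferon-stimulated response element (ISRE) after type I and type III interferons, and the gamma-activated sequence (GAS) after interferon gamma. The products of the induced genes block viral replication and raise the display of peptides on class I molecules, which are read by CD8+ T cells. In the intestine, the epithelium holds many intraepithelial T cells and keeps part of this program active in the absence of infection.

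The 9 genes fall into 3 roles. Irf1 and Irf7 encode transcription factors that induce interferon-responsive genes. Isg15 encodes a ubiquitin-like protein that is joined to other proteins, Ifit1 an RNA-binding protein that blocks translation of viral RNA, and Oasl2 a member of the 2′-5′ oligoadenylate synthetase family. B2m encodes the invariant light chain of class I molecules, H2-K1 and H2-D1 encode the classical heavy chains, and Tap1 encodes a subunit of the transporter that brings peptides into the endoplasmic reticulum.

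In mm10 coordinates (GRCm38), Irf1 lies at chr11:53770014-53778374, Irf7 at chr7:141262706-141266481, Isg15 at chr4:156199424-156200818, Ifit1 at chr19:34640871-34650009, Oasl2 at chr5:114896936-114912234 and B2m at chr2:122147686-122153083. Chromosome 17 carries H2-K1 at chr17:33996017-34000347, Tap1 at chr17:34187553-34197225 and H2-D1 at chr17:35262730-35267499, the region of the major histocompatibility complex. H2-D1 shared 4.64% of the 100-base stretches of its longest transcript with other genes, among them H2-Q1, and Ifit1 shared 3.29% with Ifit1bl2. Part of their reads may therefore not have been placed uniquely, but the placement of reads was not examined. The longest transcripts of the other 7 genes shared none. The longest transcript of H2-Q10 nevertheless shared stretches with H2-K1, so this count does not show that all H2-K1 reads were placed uniquely.

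The promoter windows of the 9 genes, from 250 bases before to 50 bases after the RefSeq start (GRCm38.p6), were searched on both strands for the ISRE core (GAAA, any 2 bases, GAAA) and the GAS core (TTC, any 3 bases, GAA). RefSeq windows were found for 9 of 9 genes. The ISRE core was in the windows of Isg15, Ifit1 and B2m, and in 3.99% of 27025 genes. The GAS core was in a window of Irf1, and in 9.55% of the genes. The windows of Irf7, Oasl2, H2-K1, H2-D1 and Tap1 held neither set of letters. The 4 stretches with a match are shown because they bring out which of the 9 genes carry the letters close to the start. They are written from 5′ to 3′ on the strand of the gene, with the matches in capitals.
Isg15: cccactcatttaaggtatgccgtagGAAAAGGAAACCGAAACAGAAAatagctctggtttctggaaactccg
Ifit1: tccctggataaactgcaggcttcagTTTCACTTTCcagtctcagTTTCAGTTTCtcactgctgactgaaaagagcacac
B2m: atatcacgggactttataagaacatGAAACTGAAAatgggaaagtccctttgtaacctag
Irf1: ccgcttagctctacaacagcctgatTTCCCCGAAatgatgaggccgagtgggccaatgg
The Isg15 stretch (chr4:156200850-156200921, minus strand) holds 3 overlapping ISRE matches that begin 78, 72 and 66 bases before the start. The Ifit1 stretch (chr19:34640760-34640838, plus strand) holds 2 matches on the opposite strand, at 104 and 85 bases before the start. The B2m match begins 139 bases before the start (chr2:122147523-122147582, plus strand), and the GAS match of Irf1 begins 90 bases before it (chr11:53769899-53769957, plus strand). These are matches of letters and not measured binding sites.

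The levels of the 9 genes were first set side by side in crypts and villi, as CPM, the share of a library's reads on the 11227 genes listed in both tables, scaled to the same total in every library. All 3 villus libraries lay above all 4 crypt libraries for 8 of 9 genes, which 11.1% of all listed genes did, while 52.3% lay below. Isg15 ranged from 1.59 to 4.99 CPM in crypts and from 21.98 to 81.5 in villi, and Irf7 from 21.8 to 34.2 in crypts and from 112 to 251 in villi. Ifit1 ranged from 5.88 to 18.8 in crypts and from 32.6 to 132 in villi. The 4 class I genes were also higher in villi. B2m ranged from 687 to 941 in crypts and from 1199 to 1583 in villi, H2-K1 from 435 to 719 and from 1084 to 1473, H2-D1 from 344 to 523 and from 684 to 1028, and Tap1 from 46.6 to 71.2 and from 73.7 to 118. Irf1 ranged from 106 to 152 in crypts and from 161 to 199.7 in villi. Oasl2 was the gene that overlapped, with 19.9 to 48.9 in crypts and 47.1 to 139 in villi.

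Between Ctrl libraries, the villus level was 15.6-fold the crypt level for Isg15, 9.11-fold for Irf7 and 5.71-fold for Ifit1, against 2.63-fold for H2-K1, 2.42-fold for H2-D1, 2.02-fold for Tap1, 2.001-fold for Oasl2, 1.76-fold for B2m and 1.33-fold for Irf1. The median of all genes was -1.06 on the log2 scale. These tables were normalized separately and Ctrl villi are 1 library, so no test was made. T cell markers lay higher in villi as well, with all 3 villus libraries above all crypt libraries for 7 of 7 markers listed in both tables, and their part in the difference was not tested.

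**Figure D1:**
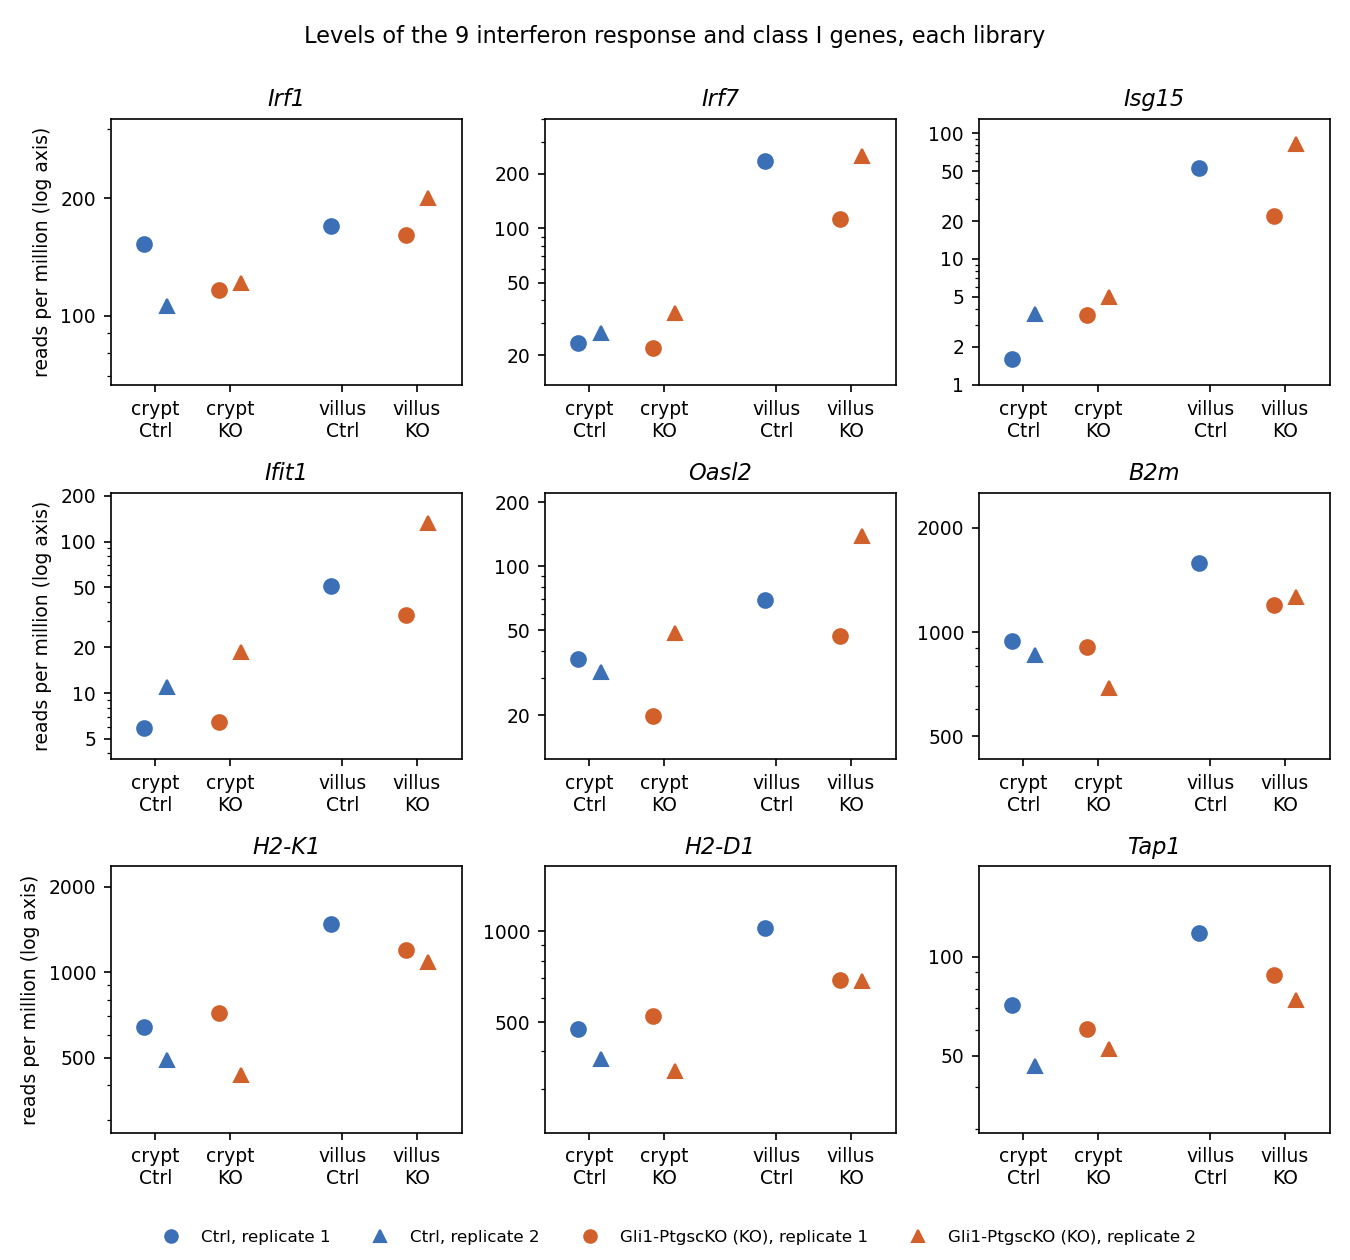
CPM on genes listed in both tables (log axis) for the 9 genes in each library, with circles for replicate 1, triangles for replicate 2, blue for Ctrl and orange for Gli1-PtgscKO. Villus libraries lie above crypt libraries for every gene but Oasl2, where the ranges of 19.9 to 48.9 and 47.1 to 139 overlap.

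Levels of different genes were compared per kilobase of the longest annotated transcript. In Ctrl crypts B2m was the most abundant with a mean of 1045 CPM per kilobase, followed by H2-K1 at 302, H2-D1 at 203, Irf1 at 60.5, Tap1 at 15.1, Oasl2 at 11.0, Irf7 at 7.67, Isg15 at 3.46 and Ifit1 at 3.19. Neighbours in this order did not overlap between the 2 Ctrl libraries, except Isg15 and Ifit1. The Ctrl villus library kept B2m (1841), H2-K1 (786), H2-D1 (489) and Irf1 (79.2) at the top in this order. Below them, Irf7 at 72.3 and Isg15 at 70.4 stood above Tap1 at 30.1, Oasl2 at 22.3 and Ifit1 at 19.2. Irf7 and Isg15 were thus close to Irf1 per kilobase in the Ctrl villus library and far below it in crypts. In Gli1-PtgscKO villi replicate 1 had Irf7 at 34.5, Isg15 at 29.1 and Irf1 at 75.4, and replicate 2 had 77.5, 108 and 93.4, so this closeness does not hold in every villus library.

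The next comparison asked whether these genes differ between Gli1-PtgscKO and Ctrl crypts. None of the 9 passed. Over all 11554 genes, limma-trend on log2(normalized count + 1) called 20 genes higher (0.173%) and 1 lower (0.00866%) at the study's threshold, an unadjusted p under 0.01 with a log2 difference over 1 in size, and none at a Benjamini-Hochberg adjusted p under 0.05 (0%). At an unadjusted p under 0.05, 73 genes (0.632%) and none of the 9 were called, and the adjusted p of each of the 9 was 1.00. The median log2 difference of the 9 genes was 0.07, against -0.01 for all genes. Both Gli1-PtgscKO libraries lay above both Ctrl libraries for 1 of 9 genes, which 9.73% of all genes did, and for none did both lie below, which 11.3% of all genes did. These p-values rest on 2 libraries for each genotype. They weigh the difference between genotypes against the spread between those libraries, which limma-trend moderates across all genes.

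Among the regulators, Irf1 had 2793 and 2015 normalized counts in Ctrl crypts and 2378 and 2282 in Gli1-PtgscKO crypts. The Gli1-PtgscKO libraries lay between the Ctrl libraries, with a log2 difference of -0.03 ± 0.26 (SE, unadjusted p = 0.92 by limma-trend). Irf7 had 428.2 and 499.6 in Ctrl and 446.9 and 643.7 in Gli1-PtgscKO crypts. These ranges overlap, with a difference of 0.21 ± 0.30 (limma-trend, unadjusted p = 0.51).

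Among the effectors, Isg15 had 29.0 and 69.3 normalized counts in Ctrl and 73.4 and 93.9 in Gli1-PtgscKO crypts. It was the gene with no overlap, but the lower Gli1-PtgscKO library was close to the higher Ctrl library, and the log2 difference of 0.87 ± 0.62 did not pass (limma-trend, unadjusted p = 0.20). Once the trend with transcript length was removed, the difference was 0.42, and replicate 2 of Gli1-PtgscKO lay 1.58 above replicate 1 on the log2 scale. Replicate 1 then no longer lay above both Ctrl libraries. Ifit1 had 107.8 and 209.7 in Ctrl and 131.1 and 353.1 in Gli1-PtgscKO crypts, with a difference of 0.51 ± 0.58 (limma-trend, unadjusted p = 0.40). Oasl2 had 675.6 and 604.0 in Ctrl, between the 408.1 and 918.6 of Gli1-PtgscKO crypts, with a difference of -0.06 ± 0.41 (limma-trend, unadjusted p = 0.89). For Ifit1 and Oasl2 the 2 Gli1-PtgscKO libraries were farther apart than the 2 genotype means, so the difference between genotypes was not detectable with these libraries.

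Among the class I genes, B2m had 17233 and 16267 normalized counts in Ctrl and 18494 and 12907 in Gli1-PtgscKO crypts. H2-K1 had 11754 and 9279 in Ctrl and 14711 and 8168 in Gli1-PtgscKO crypts, and H2-D1 had 8713 and 7195 against 10703 and 6469. For these 3 genes the Gli1-PtgscKO libraries lay on either side of both Ctrl libraries, replicate 1 above and replicate 2 below. Tap1 had 1304 and 884.9 in Ctrl and 1236 and 983.4 in Gli1-PtgscKO crypts, which lay between the Ctrl libraries. The log2 differences were -0.12 ± 0.31 for B2m, 0.07 ± 0.36 for H2-K1, 0.07 ± 0.33 for H2-D1 and 0.04 ± 0.29 for Tap1, with unadjusted p-values from 0.72 to 0.90 by limma-trend.

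In villi, the 4 class I genes lay below the Ctrl library in both Gli1-PtgscKO libraries, and the 3 effectors lay below it in replicate 1 and above it in replicate 2. Both Gli1-PtgscKO libraries were below Ctrl for 6 of 9 genes, which 44.2% of all 12701 genes were, and above it for none, against 43.7% of all genes. The median log2 difference was -0.79 over the 9 genes and -0.01 over all genes. Past a 2-fold difference with both libraries on the same side, 1 of 9 genes, H2-D1, was lower, against 9.4% of all genes, and none was higher, against 13.4%.

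B2m had 26662 normalized counts in the Ctrl villus library and 14392 and 16413 in the Gli1-PtgscKO libraries. H2-K1 had 24807 against 14292 and 14050, H2-D1 had 17303 against 8282 and 8864, and Tap1 had 1982 against 1054 and 955.2. In each of these genes the Gli1-PtgscKO libraries were close to each other and well below Ctrl. Some epithelial markers also lay below Ctrl in both libraries, 3 of 5 general ones and 4 of 6 enterocyte ones, against 44.2% of all genes. Among them were Krt8 (log2 difference -1.23), Apoa1 (-0.83), Cldn7 (-0.65), Fabp2 (-0.63) and Vil1 (-0.58), whereas Epcam (0.54), Cdh1 (0.37) and Sis (0.99) lay above Ctrl. After the trend with transcript length was removed, the medians were -0.05 for the general markers and 0.13 for the enterocyte markers. The part of these cells in the class I values was not tested. The log2 differences were -0.79 for B2m, -0.81 for H2-K1, -1.01 for H2-D1 and -0.98 for Tap1. Their median relative to that of all genes was -0.89 as deposited and -0.52 with the trend with transcript length removed. Scaling by library size alone gave -0.88. That scaling shifts all genes of a library nearly alike and placed the median of all genes at 0.42, so this relative value could hardly move. As CPM, the same 4 genes were the ones of the 9 that lay below Ctrl in both libraries, as did 23.5% of all genes.

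The villus differences moved with transcript length. After a lowess curve over the log length of the longest transcript was subtracted from each library, the log2 differences were -0.06 for B2m, -0.40 for H2-K1, -0.68 for H2-D1 and -1.11 for Tap1. All 4 were still below Ctrl in both libraries, as were 43.7% of all genes. The longest transcript of B2m has 860 bases and that of Tap1 3911 bases. B2m was thus nearly level with Ctrl after the correction, and Tap1 was not.

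Irf7 had 3943 normalized counts in the Ctrl villus library and 1343 and 3257 in the Gli1-PtgscKO libraries, and Irf1 had 2851 against 1934 and 2589. Replicate 1 was the lower library for both, and replicate 2 came close to Ctrl. The log2 differences were -0.91 for Irf7 and -0.35 for Irf1. As CPM, replicate 2 stood above Ctrl for both genes (251 against 234 for Irf7 and 199.7 against 169 for Irf1), so their position below Ctrl in both libraries depends on the scaling.

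The 3 effectors showed the widest spread. Isg15 had 896.6 normalized counts in Ctrl and 263.8 and 1057 in Gli1-PtgscKO villi. Ifit1 had 858.4 against 390.7 and 1708, and Oasl2 had 1171 against 565.0 and 1802. In every case Ctrl stood between the Gli1-PtgscKO libraries. The log2 differences of the means were -0.76 for Isg15, -0.07 for Ifit1 and -0.21 for Oasl2, and each is an average of libraries on opposite sides of Ctrl.

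**Figure D2:**
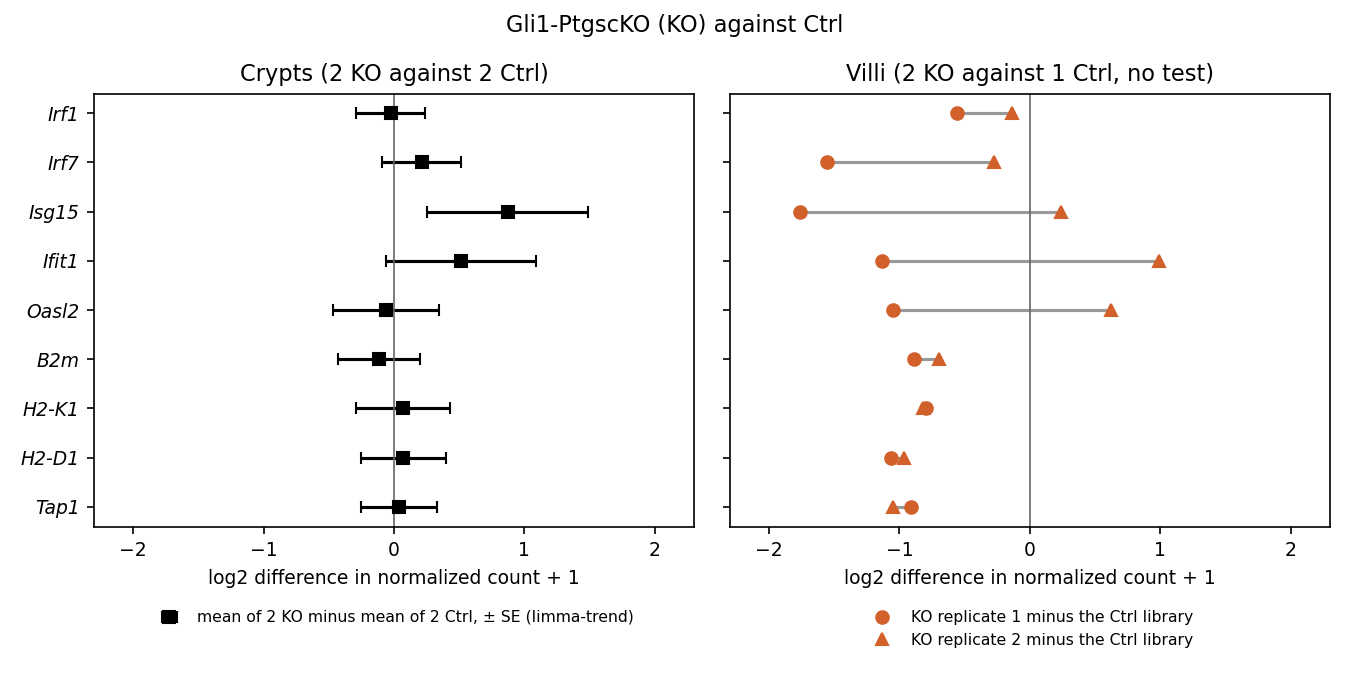
Log2 differences of Gli1-PtgscKO (KO) from Ctrl for the 9 genes. On the left, crypt differences with SE, of which Isg15 has the largest at 0.87 ± 0.62. On the right, each Gli1-PtgscKO villus library against the Ctrl library, with the class I genes close together below 0 and Isg15, Ifit1 and Oasl2 on both sides of it.

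The 2 Gli1-PtgscKO villus libraries were then compared with each other. Replicate 2 was 4.36-fold replicate 1 for Ifit1, 3.99-fold for Isg15, 3.19-fold for Oasl2 and 2.42-fold for Irf7. Only 2.5% of all genes were over 2-fold higher in replicate 2, and 4 of the 9 genes were. Irf1 was 1.34-fold, B2m 1.14-fold, H2-D1 1.07-fold, H2-K1 0.98-fold and Tap1 0.91-fold. The effectors and Irf7 therefore stood far apart between these libraries, and no class I gene was more than 1.14-fold higher in replicate 2. After the length correction the same count was 4 of 9, against 2.39% of all genes, and the log2 differences were 2.12 for Ifit1, 1.89 for Isg15, 1.68 for Oasl2 and 1.28 for Irf7.

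In crypts, replicate 2 of Gli1-PtgscKO was 2.68-fold replicate 1 for Ifit1 and 2.25-fold for Oasl2, with 8.02% of all genes over 2-fold higher. Irf7 was 1.44-fold and Isg15 1.27-fold. The class I genes were lower in replicate 2, at 0.56-fold for H2-K1, 0.60-fold for H2-D1, 0.70-fold for B2m and 0.80-fold for Tap1. With the length trend removed, 3 of 9 genes were over 2-fold higher in replicate 2, against 4.79% of all genes, namely Ifit1, Isg15 and Oasl2. B2m was then higher in replicate 2 by 0.62 on the log2 scale, and H2-K1, H2-D1 and Tap1 were lower, with -0.32, -0.29 and -0.43.

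The other interferon-stimulated effectors, a list of 52 genes with 47 in the villus table, showed the same split. Replicate 2 was above replicate 1 for 47 of 47 in villi, against 50.4% of all genes, and over 2-fold above for 21 of 47, against 2.5%. The median log2 difference between the replicates was 0.93, and after the length correction 45 of 47 were higher in replicate 2. Compared with Ctrl, 33 of the 47 were lower in replicate 1, where 50.3% of all genes were, and 34 were higher in replicate 2, where 49.8% were. In crypts, 27 of 40 were higher in replicate 2 of Gli1-PtgscKO, against 49.1% of all genes, with a median of 0.84. The genes induced by interferon gamma, such as the guanylate-binding proteins, were higher in villus replicate 2 for 18 of 18, with 9 over 2-fold. The shares of all genes were 50.4% and 2.5%. In crypts, 11 of 13 of them were higher in replicate 2, against 49.1% of all genes. Against Ctrl villi, Gbp4 (1.91), Gbp9 (1.58) and Gbp6 (1.26), which shares 51.3% of its transcript stretches with Gm43302, Gbp10 and other genes, were higher past 2-fold, and Igtp (-1.55), a GTPase, and Cxcl9 (-1.35), a chemokine that attracts T cells, were lower.

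**Figure D3:**
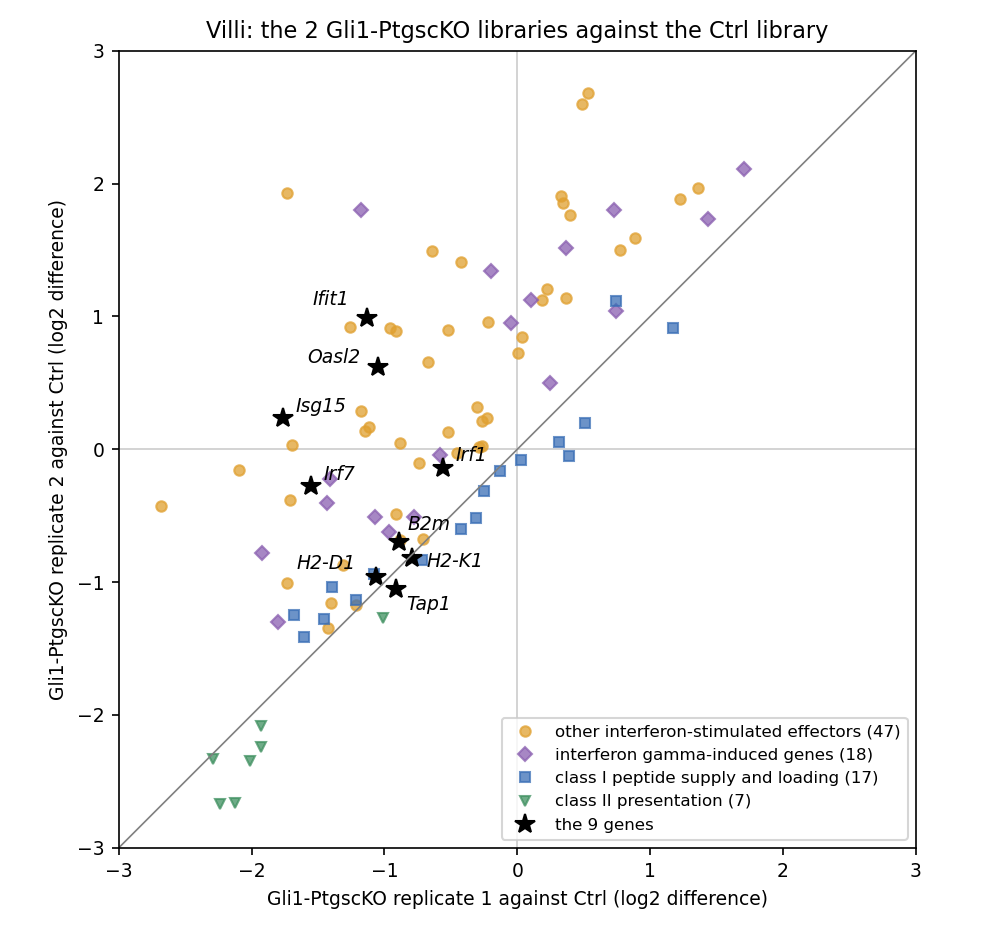
Log2 difference from the Ctrl villus library in Gli1-PtgscKO replicate 1 (x axis) and replicate 2 (y axis) for the 9 genes (stars) and 4 further lists, with the number of genes listed in brackets and equality as a diagonal line. All 47 other interferon-stimulated effectors lie above the diagonal, and B2m, H2-K1, H2-D1 and Tap1 lie close to it.

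With both libraries on 1 side of Ctrl, 9 of the 47 other effectors were on average over 2-fold higher in Gli1-PtgscKO villi. By the same rule 8 were over 2-fold lower, against 13.4% higher and 9.4% lower among all genes. The median of the 47 was -0.02. After the length correction, by the mean alone, 5 of the 47 were over 2-fold higher and 1, Ly6e, over 2-fold lower. By the mean alone, 9.08% and 5.03% of all genes were. Among the higher genes were Isg20 (log2 difference 1.67), an exonuclease, Oas2 (1.61), an oligoadenylate synthetase, Samd9l (1.55) and Trim30a (1.54). Eif2ak2 (1.24), which encodes the kinase PKR, Parp14 (1.14), Rsad2 (1.12), which encodes viperin, Ddx60 (1.10) and Herc6 (1.08) made up the rest. The lower genes were Ifi27l2a (-1.56), Ifitm3 (-1.39) and Ifitm1 (-1.19), both of which encode membrane proteins that block viral entry, Ube2l6 (-1.37), the conjugating enzyme for Isg15, Ly6e (-1.28), Oas1a (-1.13), Ifi35 (-1.09) and Slfn2 (-1.05). Some of these genes had few reads. Isg20 had 11.6 normalized counts in Ctrl against 31.3 and 48.3, Oas2 had 26.6 against 39.0 and 177, and Ifitm1 had 20.9 against 8.41 and 8.69. Several of the averages rest mainly on 1 library. Replicates 1 and 2 stood at 0.53 and 2.68 for Oas2, at -2.10 and -0.16 for Oas1a, and at -2.68 and -0.43 for Ifi27l2a. Oas1a shares 40.9% of its transcript stretches with Oas1g, so the split of reads between them is uncertain.

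In crypts, none of the 122 other listed genes of the interferon and presentation pathways was called at the study's threshold, and 2 had an unadjusted p under 0.05, against 0.632% of all genes. Ifi27l2b had 989.5 and 1048 normalized counts in Ctrl and 1744 and 1551 in Gli1-PtgscKO crypts, a log2 difference of 0.69 ± 0.24 (limma-trend, unadjusted p = 0.024) that was 0.36 after the length correction. Tap2, which encodes the partner subunit of Tap1 in the peptide transporter, had 141.5 and 141.3 in Ctrl and 366.2 and 214.6 in Gli1-PtgscKO crypts, a difference of 0.98 ± 0.39 (limma-trend, unadjusted p = 0.041). Both were higher in each Gli1-PtgscKO library, and their adjusted p was 1.00. In all, 13 of the 122 lay above both Ctrl libraries and 7 below, against 9.73% and 11.3% of all genes. Socs1 (0.80), an inhibitor of JAK signaling, Rfxank (0.85), Oas1a (0.63), H2-M3 (0.34) and H2-T3 (0.13) were among the higher genes, and Irf2 (-0.51), Irgm1 (-0.42), Mavs (-0.33) and Ifnar2 (-0.20) among the lower. None of these 9 values passed the test.

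Upstream of the 9 genes, none of 10 interferon genes was listed in either table, so whether they were expressed at a low level is not known. The 6 receptor chains were all listed, and Ifnlr1, the specific chain of the interferon lambda receptor, was the one past a 2-fold difference in villi, with 106.6 normalized counts in Ctrl and 223.3 and 211.5 in Gli1-PtgscKO (log2 difference 1.02, and 0.83 after the length correction). In crypts it had 162.1 and 152.1 against 164.7 and 234.7, a difference of 0.32 ± 0.37 (limma-trend, unadjusted p = 0.42). Of the 14 signal transducers, Irf8 passed 2-fold in villi, with 3122 in Ctrl against 1386 and 1559 (-1.09), and Irf5 followed at -0.92. Among the receptors, Ifngr1, a chain of the interferon gamma receptor, stood at 0.49. Stat2, a transcription factor activated by type I and type III interferons, had 339.4 against 487.0 and 814.2. Of 11 listed sensors of nucleic acids, Aim2 was higher in villi (22.01 in Ctrl, 114.7 and 116.9 in Gli1-PtgscKO, log2 difference 2.34) and Zbp1 was lower (1163 against 235.5 and 605.6, -1.62).

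Of 17 further genes of class I peptide supply and loading, 11 were below Ctrl in both Gli1-PtgscKO villus libraries, 4 above and 2 between, against 44.2% below and 43.7% above among all genes. Past 2-fold, 6 were lower and 1 higher, against 9.4% and 13.4%. The median was -0.42. The 3 catalytic subunits of the immunoproteasome were among the 6. Psmb10 had 9650 in Ctrl against 3165 and 3622 (-1.51), Psmb9 had 2740 against 855.6 and 1152 (-1.46), and Psmb8 had 2316 against 844.1 and 952.3 (-1.37). The activator subunits Psme1 (-1.17) and Psme2 (-1.22) and the transcription factor gene Rfxank (-1.01) were the other members, and Rfx5 (1.05), which encodes a partner of Rfxank, was the higher gene. Psme2 shares 44.5% of its transcript stretches with Psme2b.

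The constitutive subunits that the immunoproteasome subunits replace were lower as well. Psmb5 had 2010 in Ctrl against 965.6 and 725.4 (-1.26), Psmb6 had 3882 against 1428 and 1561 (-1.38), and Psmb7 had 978.8 against 646.8 and 696.4 (-0.54). After the length correction 2 of the 6 lower genes of peptide supply stayed past 2-fold, Psmb9 and Rfxank (-1.07), and Psme1 stood at -0.80, Psme2 at -0.51 and Rfx5 at 0.80. The immunoproteasome genes stood at -0.97 (Psmb8), -1.35 (Psmb9) and -0.91 (Psmb10), and the constitutive ones at -0.53 (Psmb5), -0.67 (Psmb6) and -0.42 (Psmb7). Tap2, the partner of Tap1, had 379.9 in Ctrl against 346.3 and 339.0 (-0.15). Among 13 other class I heavy chains and related genes none passed 2-fold, with a median of -0.19 that was 0.25 after the correction. Fcgrt (-0.97), the Fc receptor of the neonate, which also pairs with B2m, was the farthest below Ctrl, and H2-T24 (0.85) the farthest above. H2-T24 had few reads, 18.5 normalized counts in Ctrl against 20.6 and 56.0, so its average rests mainly on replicate 2. After the correction H2-T24 (1.15) and H2-Q10 (-1.01) were past 2-fold, as were 9.08% (higher) and 5.03% (lower) of all genes.

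**Figure D4:**
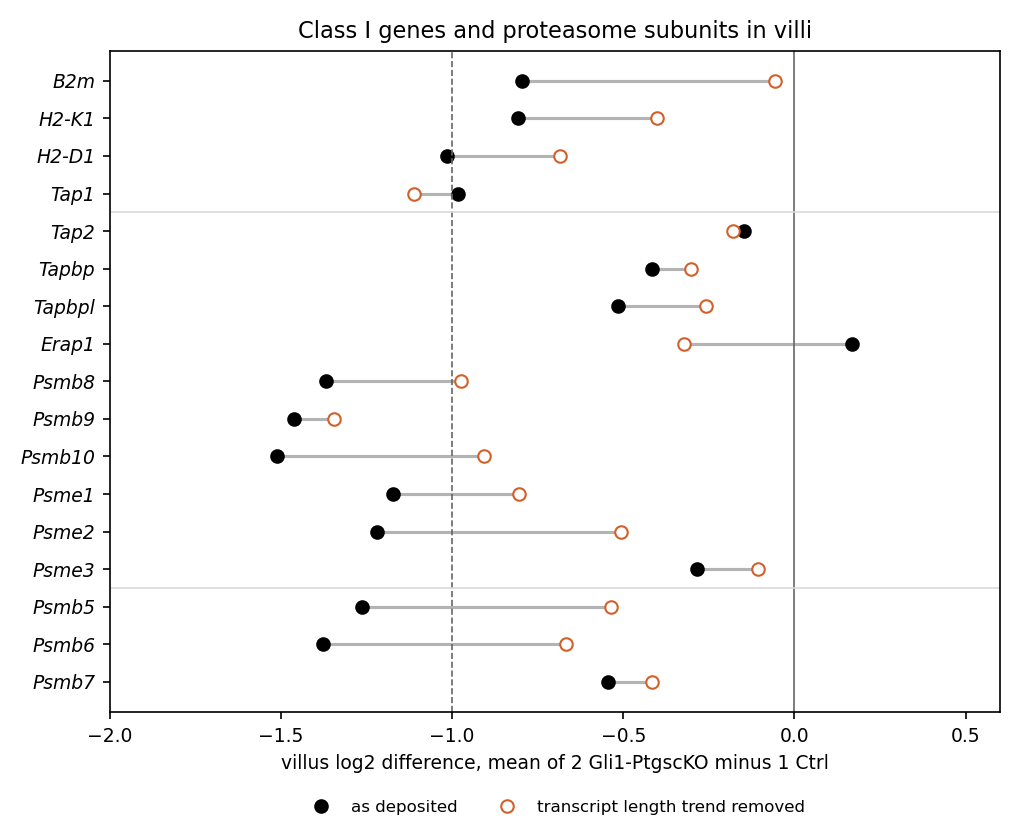
Villus log2 difference, mean of 2 Gli1-PtgscKO libraries minus the Ctrl library, for the 4 class I genes, 10 genes of peptide supply and 3 constitutive proteasome subunits, as deposited (filled) and with the transcript length trend removed (open), with a dashed line at -1. B2m moves from -0.79 to -0.06 and Tap1 from -0.98 to -1.11.

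Class II genes, which are induced by interferon gamma through Ciita and are expressed by antigen-presenting cells and by villus epithelium, were lower by more than the class I genes. All 7 were past 2-fold below Ctrl in villi, against 9.4% of all genes, with a median of -2.18. After the length correction all 7 were past 2-fold lower by the mean alone, against 5.03% of all genes, with a median of -1.74. Ciita, their transcriptional activator, stood at -1.14, and Cd74, the invariant chain, at -2.39. H2-Aa (-2.08), H2-Ab1 (-2.18) and H2-Eb1 (-2.01) encode chains of the class II molecules, and H2-DMa (-2.45) and H2-DMb1 (-2.31) the subunits that load them. Their summed level was 26464 normalized counts in Ctrl and 6423 and 4902 in Gli1-PtgscKO villi, so they were lowest in replicate 2, where the interferon effectors were highest. In crypts it was 14174 and 3053 in Ctrl and 9735 and 3650 in Gli1-PtgscKO, with replicate 1 above replicate 2 in both genotypes.

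Some markers of leukocytes also differed between these libraries. In villi, the summed T cell markers (9 of 9 listed) were 16396 in Ctrl and 8876 and 11467 in Gli1-PtgscKO, those of B and plasma cells (5 of 5) were 12565 against 2063 and 3393, and those of macrophages and dendritic cells (6 of 6) were 5660 against 2376 and 2919. Of the 9 T cell markers, 5 were below Ctrl in both libraries, as were 44.2% of all genes. These were Ccl5 (log2 difference -1.11), Gzma (-0.97), Trac (-0.73), Trbc2 (-0.61) and Cd3g (-0.35). Itgae (0.24) was above it, and Cd3e (-0.0082), Cd8a (-0.0058) and Gzmb (-0.15) were between. After the length correction the median of the 9 was 0.04. Of the 3 general leukocyte markers, Coro1a (-1.21) and Laptm5 (-1.09) were below Ctrl in both libraries and Ptprc (1.72) was above it. In crypts the T cell markers (7 of 9 listed) summed to 1050 and 2902 in Ctrl and to 1216 and 2804 in Gli1-PtgscKO, with replicate 2 higher in both genotypes, as it was for Isg15, Ifit1 and Irf7. Crypt sums for B and plasma cells (5 of 5) were 3828 and 3079 against 1979 and 2671. Macrophage and dendritic cell markers (3 of 6 listed) went the other way from villi, with 922 and 537 in Ctrl crypts against 1192 and 1905. Of these, 2 of 3 lay above both Ctrl libraries, as did 9.73% of all genes. The endothelial markers Cdh5 and Kdr were listed in neither tissue. The part of these cells in the levels of the 9 genes was not tested.

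The genes most like the 9 were found from the correlation with their mean centred log2 profile over the 7 distinct libraries, among 11218 genes. These were mt-Nd3 (Pearson r = 0.99), a mitochondrial subunit of complex I, Ifi27 (0.99), Arpc1b (0.99), a subunit of the actin-nucleating Arp2/3 complex, Oasl1 (0.99) and Apol9a (0.98). Of these, Ifi27 and Oasl1 are on the list of other effectors. Among the 9 genes, Irf7 (0.997) and Isg15 (0.99) had the highest values with this profile and Tap1 (0.76) the lowest. Each of the 9 is itself part of the mean, and genes with a wide range weigh most in it, so their values are partly built in. With 3 villus and 4 crypt libraries, all these correlations largely describe the contrast between tissues.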

How the data were processed

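RNA from crypts and villi was sequenced, aligned to mm10 with STAR and counted per gene by the authors. The labels name the RNeasy and NEBNext kits, and the study's text other kits. The deposited values are a signal per gene, gene counts that the authors divided by DESeq2 size factors, in 1 table for each tissue. Within each library 100% of the values were whole multiples of 1 step (tolerance 0.01). Columns with the authors' fold changes and p-values were not used.

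Genes with a mean normalized count of at least 1 entered a fit over the 4 crypt libraries, by limma-trend on log2(value + 1) with limma 3.58.1 in R 4.3.3, without a replicate block. This filter removed no gene, since the lowest mean of a listed gene was 48.4 in crypts and 8.73 in villi. Fold changes on this scale understate those of low genes. P-values were adjusted over all genes by the Benjamini-Hochberg method, and the script was tested on simulated data. The deposited Ctrl villus columns were identical, so villus differences are those of the mean log2 values, and a villus gene was called past 2-fold with both Gli1-PtgscKO libraries on 1 side. After the length correction, past 2-fold refers to the mean alone. Levels across tissues used CPM on the genes of both tables. Transcript lengths and coordinates came from GENCODE M21 (GRCm38), and a lowess curve (span 0.3) gave the length correction. Python 3.11.15, numpy 2.4.6, pandas 2.3.3 and matplotlib 3.10.9 were used.

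The 9 genes and all lists were chosen with earlier results of these data known. Named besides the 9 were, in each list, the 2 genes with the largest crypt and the 2 with the largest villus difference among those with both Gli1-PtgscKO libraries on 1 side, every list gene past a threshold, and the 5 genes most like the mean profile. Stat2, Psmb7, H2-Q10 and the marker genes were named after their values were seen. Alternatives were library size scaling, other filters, a pseudocount of 0.1, the length correction, the block and leaving out each library.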

Additional observations from a re-analysis of the deposited data

Results flagged for a closer look

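Among the 64 genes made up of the 9 and the list genes named by the rule, 15 had Gli1-PtgscKO and Ctrl crypts that did not overlap, and 7 had all Gli1-PtgscKO libraries above or below Ctrl in crypts and the reverse in villi. None of the 9 genes did. Over all 11227 genes in both tables, 1453 did. The named genes were chosen partly for not overlapping, so these counts are not compared. The difference between the tissues was not tested, since Ctrl villi are 1 library. The log2 differences of Gli1-PtgscKO from Ctrl in crypts and villi were 0.80 and -0.92 for Socs1, 0.63 and -1.13 for Oas1a, 0.27 and -1.37 for Ube2l6, 0.98 and -0.15 for Tap2, 0.85 and -1.01 for Rfxank, and 0.34 and -0.19 for H2-M3. Irf2, which encodes a repressor at sites shared with Irf1, was the gene with the reverse order, at -0.51 in crypts and 0.16 in villi.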

How the results depend on the processing

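In crypts, the counts of 20 higher, 1 lower and 0 genes at an adjusted p under 0.05 became 63, 15 and 34 by limma-trend with the replicate block. Deviations of same-numbered crypt libraries correlated at r = 0.25 across 11554 genes, and with 2 pairs the numbers were not taken to pair them. None of the 9 genes was called under the block. The count of lower genes was 4 with library size alone and 4 with the length correction. Leaving out each library gave 15 to 593 higher genes, 3 to 288 lower and 0 to 1987 at an adjusted p under 0.05. The highest counts came without Gli1-PtgscKO replicate 2, when 4000 genes had an unadjusted p under 0.05 in place of 73, and the lone remaining library was assumed to vary as the Ctrl libraries do. The lower count was 5 without Ctrl replicate 2 and 8 without Gli1-PtgscKO replicate 1.

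The median crypt log2 difference of the 9 genes ranged from -0.10 (without Ctrl replicate 2) to 0.21. By gene, the range over leaving out each library was -0.26 to 0.21 for Irf1, -0.049 to 0.48 for Irf7, -0.20 to 1.23 for Ifit1, -0.65 to 0.52 for Oasl2, -0.38 to 0.14 for B2m, -0.35 to 0.49 for H2-K1, -0.29 to 0.43 for H2-D1 and -0.24 to 0.32 for Tap1. Isg15 ranged from 0.26 to 1.48. By limma-trend, unadjusted p-values without Gli1-PtgscKO replicate 1 were 0.023 for Ifit1 (1.23) and 0.032 for Oasl2 (0.52), and without replicate 2 they were 0.018 for Oasl2 (-0.65), 0.034 for H2-K1 (0.49) and 0.042 for H2-D1 (0.43), with adjusted p-values from 0.076 to 1.00. With library size alone, H2-K1 stood at -0.0031, H2-D1 at -0.0013 and Tap1 at -0.036. With the length correction, H2-K1 stood at -0.084, H2-D1 at -0.050 and B2m at -0.52 (limma-trend, unadjusted p = 0.065). The cause was not tested. In villi the median of -0.79 was -0.17 with the length correction, -0.36 with library size alone, -0.28 without replicate 1 and -1.05 without replicate 2. With library size alone, Irf1 stood at 0.08, Ifit1 at 0.36 and Oasl2 at 0.22, and with the length correction Isg15 stood at 0.01 and Ifit1 at 0.11.

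The planned DESeq2, edgeR and TMM alternatives were not run, because reads were taken as recovered only where low values show the worth of a single read, and the crypt table lists almost none. A pseudocount of 0.1 changed no direction of the 9 genes. Other filters could not change a direction, because each log2 difference is computed from the values of that gene alone. With 2 libraries for each genotype, a two-sided exact test of 1 gene cannot go below p = 0.33.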
